A study of Rattus norvegicus with 2 samples.

Results

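The genes described here encode carriers that move bile acids, drugs and lipids across liver membranes. They were taken by symbol from the ABC families A to G and from the solute carrier families SLCO, SLC10, SLC22, SLC47 and SLC51, using probe sets annotated to a single gene, and each gene was represented by its probe set of highest mean signal. This gave 73 genes on 96 probe sets, out of 14217 genes represented on the array. The current rat annotation holds 102 protein-coding genes whose symbols match the rule, of which 72 were represented, together with Slco6b1, which that annotation lists as non-coding; the others were not analysed here.

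Liver RNA of male Wistar rats aged 2 months and weighing 250 to 300 g was hybridised to Affymetrix rat expression arrays. The fasted group had received no fat meal after an 18 h fast, and the olive oil group had been fasted in the same way, given 5 ml of extra virgin olive oil by mouth, about 16 ml per kg, and killed 4 h later. Each group is 1 array, and the labels state neither the number of livers behind it nor whether the fasted rats were kept for the further 4 h. There is thus no replicate check: every difference sets 1 array against another, carries no p-value or SD over animals, and a fixed size of 1.5-fold (0.58 on the log2 scale) stands in for a test.

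A hepatocyte faces blood on its sinusoidal side and bile on its canalicular side. Bile acids returning from the gut are taken up by the sodium-dependent carrier encoded by Slc10a1 and by the SLCO organic anion carriers, and ABC pumps of the canalicular membrane, which are driven by ATP, secrete them into bile together with phospholipid, sterols and conjugated drugs. Other ABC proteins return bile acids and conjugates to blood, build high density lipoprotein or work inside the cell at peroxisomes, lysosomes and mitochondria. A fat meal empties the gallbladder in many mammals, but the rat has none, and its bile flows from liver to gut without storage.

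The measured transporters of uptake and of export into bile lay within 1.5-fold between the fasted and the olive oil liver. Of 8 measured uptake genes and 6 measured genes of export into bile, 0 reached 1.5-fold in either direction. Over all 9208 measured genes 19.6% did, 9.46% on the higher and 10.1% on the lower side (7.61% and 12.7% after centring each array on its median). The share was smaller among bright genes. Past the 75th percentile of signal it was 14.4% of all genes, beside 0 of the 11 uptake and bile export genes there. Roles were given from textbook knowledge but with earlier results of these data known, and the counts depend on them. The organic anion carrier Slc22a8 was not put on the uptake list. It was 1.46-fold lower on its chosen probe set and 2.06-fold lower on its other one. Genes whose average log2 signal fell short of the middle probe set, a signal of 41.4, were called not measured and are given apart. The median log2 difference, olive oil minus fasted, was -0.11 for uptake and -0.05 for export into bile, beside -0.01 for all measured genes. The medians of uptake and export were 0.07 apart. Different measured probe sets of 1 gene scattered with a pooled SD of 0.35 over 2290 genes and of 0.25 over the 12 transporter genes that had more than 1. This scatter covers probe error and not variation between rats. The median signal was 42.5 on the fasted and 44.7 on the olive oil array.

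On the uptake side, Slc10a1, the sodium-taurocholate cotransporter that brings conjugated bile acids into the hepatocyte, read 9297 on the fasted array and 8180.3 on the olive oil one, a log2 difference of -0.18. Slco1a4, an organic anion carrier with a broad range that includes bile acids and cardiac glycosides, stood at 5788 and 5004, and its second probe set gave nearly the same log2 difference, -0.24 beside -0.21. Slco1a1, another rat carrier of bile acids and steroid conjugates, stood at 2052 and 1579, the largest decrease of the measured uptake genes with a log2 difference of -0.38. These 3 probe sets were a little dimmer in the olive oil array, none by 1.5-fold. Slco1b2, the rodent counterpart of the human hepatic OATP1B carriers, stood at 2951 and 3090 on the probe set chosen, but a second and almost equally bright one went from 3017 to 2487, with log2 differences of 0.07 and -0.28. The direction for Slco1b2 was therefore not settled by these probe sets, and centring each array on its median turned the first of these values to -0.0066. Slco2b1, a carrier of sulfated steroids and drugs, stood at 676.5 and 644.2.

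Among the SLC22 carriers put on the uptake list, Slc22a7, the organic anion transporter OAT2, stood at 2108 and 1896, a log2 difference of -0.15. Slc22a5, which imports carnitine and thereby serves the entry of fatty acids into mitochondria, stood at 492.7 and 581.8, 1.18-fold higher in the olive oil array. Slc22a25 was dim, at 56.6 and 81.1, and its log2 difference of 0.52 was the highest of the list and short of 1.5-fold. The uptake list thus held 5 lower and 3 higher signals, or 6 and 2 with the arrays centred. Slco1a5, the ninth represented uptake gene, was too dim to count as measured, at 13.0 and 34.8.

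On the bile side, Abcb11, the bile salt export pump that limits the rate of bile acid secretion, stood at 2525 and 2797, a log2 difference of 0.15. Abcb4, the flippase that supplies phosphatidylcholine to bile, stood at 1424 and 1292.5, a difference of -0.14. Abcc2, which exports bilirubin glucuronides and glutathione conjugates, stood at 1399 and 1334, a difference of -0.07. These pumps of bile acid, phospholipid and conjugate flow each lay within 1.11-fold between the arrays. Abcg5, which forms a sterol exporter together with Abcg8, stood at 211.7 and 192.0, while Abcg8 was just below the level for a measured gene, at 38.6 and 37.8. Abcg2, a pump for sulfates, urate and drugs, stood at 105.4 and 127.9, the highest log2 difference on this side at 0.28. Abcb1a, a P-glycoprotein gene, stood at 58.9 and 57.9, and 59.2 and 56.4 on its other probe set. Slc47a1, an exchanger of organic cations, gave signals of 2.4 and 3.2, both under the floor of 12.8 to which low signals were raised. Export into bile held 4 lower and 2 higher signals among its 6 measured genes, also with centred arrays.

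**Figure D1:**
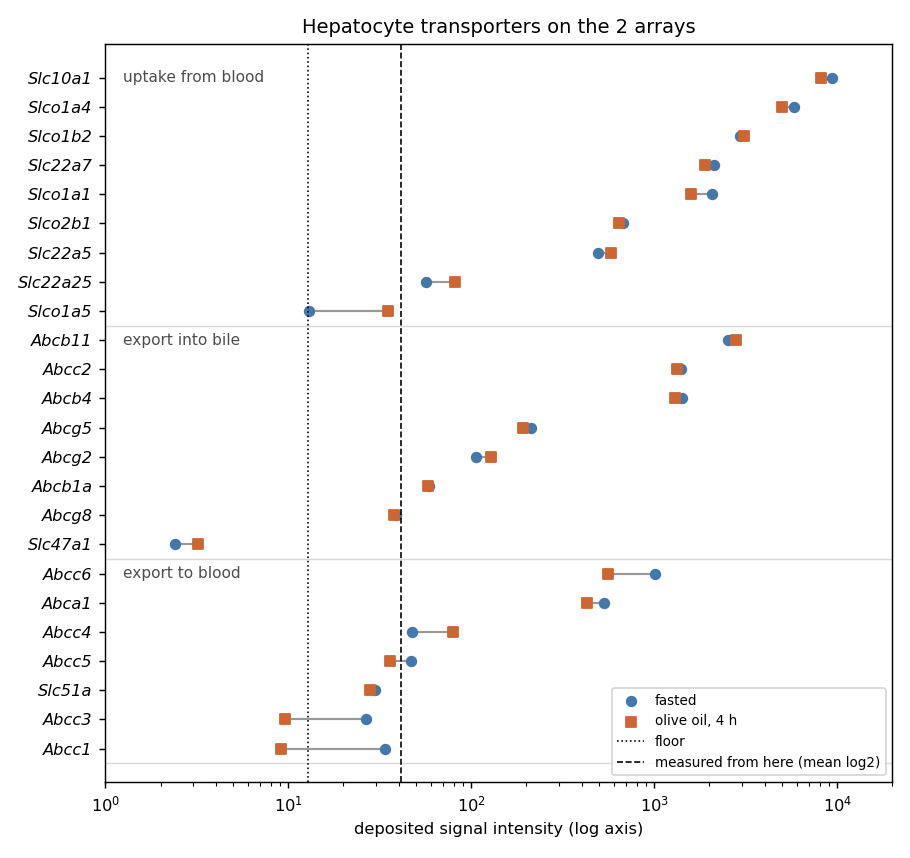
Deposited signal intensity (log axis) of every represented gene of uptake, export into bile and export to blood, 1 circle for the fasted and 1 square for the olive oil array, with the floor of 12.8 (dotted) and the level of 41.4 for a measured gene (dashed). In the bright uptake and bile genes the symbols nearly coincide, while Abcc6 and Abcc4 lie apart; levels of different genes cannot be compared, since each probe set has its own brightness.

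The DNA before these genes is shown because several of the uptake and export genes hold the same pair of short motifs there. RefSeq windows of 250 bases before the start site were found for 62 of the 73 genes, and 8 short motifs were searched on both strands. AGGTCA, the core to which many nuclear receptors bind, was in 10 of the 62 (16.1%) and in 14.1% of all 33469 windows; GTTAAT, a core of HNF1 sites, was in 8 (12.9%) against 6.45%. Both were found in 4 of the 62 (6.45%), Slc10a1, Slco1b2, Slc22a25 and Abcc2, beside 0.932% of all windows; all 4 are on the uptake or bile list, which had 15 windows. This pairing was picked after the windows had been searched, a match is not a bound site, and these arrays carry no measurement of binding. The windows of 3 of these genes are given 5′ to 3′ on the GRCr8 build, with matches to AGGTCA and to the HNF1 core, on either strand, in capitals.
Slc10a1, chr6:106357945-106358194, minus strand: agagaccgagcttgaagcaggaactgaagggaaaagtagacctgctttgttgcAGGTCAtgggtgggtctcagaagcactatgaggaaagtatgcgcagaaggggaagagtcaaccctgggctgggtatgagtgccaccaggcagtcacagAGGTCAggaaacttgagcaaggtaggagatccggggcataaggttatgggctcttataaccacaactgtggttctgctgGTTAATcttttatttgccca
Slco1b2, chr4:176282334-176282583, plus strand: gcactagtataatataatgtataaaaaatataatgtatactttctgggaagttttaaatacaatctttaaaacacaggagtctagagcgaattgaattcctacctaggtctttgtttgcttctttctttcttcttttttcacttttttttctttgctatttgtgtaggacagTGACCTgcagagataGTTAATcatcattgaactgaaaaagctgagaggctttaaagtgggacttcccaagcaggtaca
Abcc2, chr1:252613625-252613874, plus strand: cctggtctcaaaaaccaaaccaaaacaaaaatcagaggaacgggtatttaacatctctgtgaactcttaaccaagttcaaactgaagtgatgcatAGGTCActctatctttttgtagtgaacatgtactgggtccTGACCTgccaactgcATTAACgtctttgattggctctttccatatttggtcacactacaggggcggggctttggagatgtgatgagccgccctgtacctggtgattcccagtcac
In Slc10a1 the AGGTCA matches begin 197 and 99 bases before the start site and GTTAAT begins 20 bases before it. In Abcc2 they begin 155 and 115 bases before it, the second on the other strand, and the GTTAAT match, on the other strand too, 100 bases before. In Slco1b2 the 2 motifs lie 78 and 63 bases before the start.

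Of the other motifs, TTGCGCAA, a C/EBP palindrome, had 0 matches in the 62 windows and was in 0.14% of all windows. CAAAGT, an HNF4 core, was in 16.1% beside 12.9%, the E-box CACGTG in 6.45% beside 5.59%, and TATAAA in 14.5% beside 12.9%. TGACNNNGC, the antioxidant response core, was in 8.06% beside 10.1%; its letters TGAC can overlap a reversed AGGTCA. Last, the SP1 box GGGCGG was in 48.4% beside 30.5%. For every motif the share over all windows was taken without selection by gene type. The transporter windows and all windows may therefore differ in the kinds of genes they hold. A pair of longer motifs, an inverted repeat of the nuclear receptor core and a glucocorticoid receptor core, was searched too, with 0 matches in the 62 windows. Their share over all windows is not given, so this 0 cannot be set beside a background. A missing match says only that those letters are not in that window.

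Abcg8 and Abcg5 stand head to head on chromosome 6 and are transcribed away from each other, with 205 bases between their annotated starts. This stretch is printed because both genes of the sterol exporter share it, and their log2 differences were -0.03 and -0.14. It is given on the strand of Abcg5, with TATAAA and the antioxidant response core TGACNNNGC in capitals.
Abcg8 to Abcg5, chr6:15717731-15717935, plus strand: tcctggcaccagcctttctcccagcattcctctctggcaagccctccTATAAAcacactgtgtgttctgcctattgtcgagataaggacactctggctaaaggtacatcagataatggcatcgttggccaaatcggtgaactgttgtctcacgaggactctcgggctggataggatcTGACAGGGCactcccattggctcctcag
The antioxidant response core begins 28 bases before the start of Abcg5, and TATAAA, read on this strand, 158 bases before it. The windows of both genes hold this stretch, so each of these matches counts for both genes in the shares above.

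Export back into blood was the hepatocyte role with the wider differences, in opposite directions. Abcc6, a basolateral ABC protein needed for the release of ATP from hepatocytes and mutated in pseudoxanthoma elasticum, read 1006 on the fasted array and 559.2 on the olive oil one, a log2 difference of -0.85. Abcc4, which exports bile acids and cyclic nucleotides to blood, went the other way, from 47.3 to 79.1, 1.67-fold higher. Abcc4 was dim, and with 16 added to every signal its log2 difference of 0.74 became 0.59, just past 1.5-fold. Abca1, which loads cholesterol and phospholipid onto apolipoprotein A-I, stood at 530.8 and 430.9, and its 4 probe sets all had lower signals in the olive oil array, with log2 differences of -0.30, -0.14, -0.14 and -0.83 from the brightest to the dimmest. The remaining 4 genes of the role were below the level for a measured gene: Abcc5 at 47.0 and 36, Slc51a, a subunit of the organic solute transporter, at 29.8 and 27.8, Abcc1 at 33.8 and 9.1, and Abcc3, an inducible exporter of glucuronides, at 26.7 and 9.6. For the last 2 the olive oil signals were under the floor, so that no size is given. Abcc6 is the gene of the hepatocyte roles with the largest measured decrease, and its window is shown for that reason, with the GGGCGG match in capitals 147 bases before the start.
Abcc6, chr1:105637896-105638145, minus strand: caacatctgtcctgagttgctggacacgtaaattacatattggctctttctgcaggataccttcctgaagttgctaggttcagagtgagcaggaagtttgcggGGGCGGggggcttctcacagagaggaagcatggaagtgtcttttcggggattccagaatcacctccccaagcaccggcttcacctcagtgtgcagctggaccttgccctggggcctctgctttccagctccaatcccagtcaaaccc

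Across all 73 genes, 44 were measured and 29 were not. Of the 44, 2 reached 1.5-fold on the higher side (4.55%, beside 9.46% of all measured genes) and 6 on the lower (13.6%, beside 10.1%), which is 8 in all where 19.6% of all genes did. At 2-fold the counts were 0 and 2, beside 3.25% and 2.94%, or 6.19% for both directions. Among the 30 brighter transporters, past the 75th percentile of signal, 0 were higher and 4 lower by 1.5-fold, where 7.01% and 7.43% of all such genes were (14.4% in all). With dim genes kept, 10 of the 73 were higher and 11 lower, where 12.8% and 12.4% of all genes were (25.2% in all). The median log2 difference was -0.07, beside -0.01, and 24 of 44 differences were negative (54.5%, beside 51.7%). These shares lay near those of all genes. The lower genes were Abca2, Abcc9, Slc22a4, Abcc6, Slc22a23 and Slco2a1, and the higher ones Abcc4 and Abcc10. Abcc10 passed the level of 41.4 for a measured gene only through its olive oil signal, since its fasted signal was 37.6. The members nearest to the limit were Slco2a1 at -0.59, just past it, and Slc22a8 at -0.55 and Abcg3l1 at -0.54, just short of it. All 8 were among the 30 measured genes outside uptake and export into bile.

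**Figure D2:**
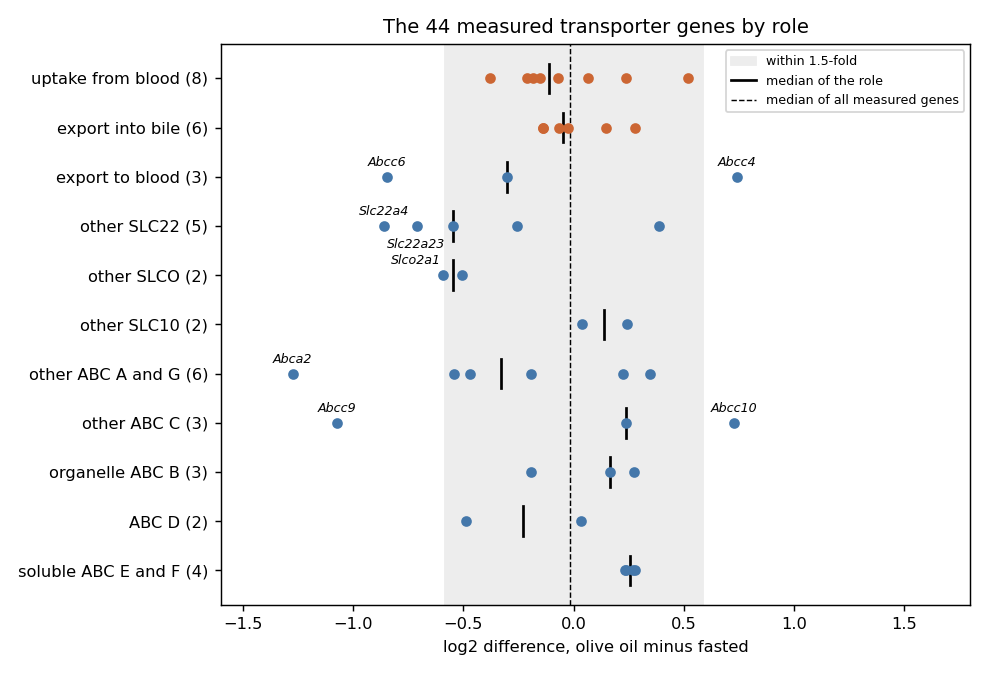
Log2 difference, olive oil minus fasted, of the 44 measured transporter genes by role (number of genes in brackets), with the range within 1.5-fold in grey, a bar at each role's median and a dashed line at the median of all measured genes. All 8 uptake and all 6 bile export genes lie in the grey range, and the 8 named genes outside it belong to other roles.

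Of the 7 remaining measured SLC22 and SLCO carriers, 6 had a lower signal in the olive oil array, where 51.7% of all measured genes did. Slc22a4, a carrier of ergothioneine, went from 99.6 to 54.9, 1.81-fold lower. Slc22a23, an orphan carrier, went from 681.1 to 415.7, 1.64-fold lower, but its other, dimmer probe set gave a log2 difference of -0.38 and the mean of both was -0.55, short of 1.5-fold. Slc22a8, the organic anion carrier OAT3, stood at 2456 and 1681.5 on the chosen probe set, 1.46-fold lower, and at 471.2 and 229.0 on the other, 2.06-fold lower. The probe sets of both genes thus agreed in direction and not in size. Slc22a18, an imprinted orphan carrier, stood at 3390 and 2839, a log2 difference of -0.26, and Slc22a17 at 188.7 and 246.5 was the member of this group with a higher signal.

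Slco2a1, the prostaglandin transporter, which clears prostaglandins from the circulation and is made in endothelium, went from 2853 to 1892, 1.51-fold lower. Its other probe set went from 427.9 to 268.5, 1.59-fold lower, so that both lay past 1.5-fold. Of 7 represented markers of sinusoidal endothelium all were measured, and their summed signal was 5580 in the fasted liver and 6064 after oil, of which Lyve1 gave 1798 and 2741. Among them Lyve1 had a log2 difference of 0.61, Stab1 of -0.81 and Kdr of -0.54, and none was listed at 0; their part in the difference of Slco2a1 was not tested. Slco3a1 was dim, at 67.1 and 47.3. Of the 6 measured SLCO genes, 5 had lower signals (6 with centred arrays), with a median log2 difference of -0.29. In whole liver, fewer cells of a type and less RNA per cell cannot be told apart.

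Several of these carriers are neighbours in the genome, and neighbours did not always share a direction. Slco1c1, Slco1b2, Slco1a4, Slco1a1, Slco1a3, Slco1a6 and Slco1a5 follow one another without another protein-coding gene between, and 3 of these 7, Slco1b2, Slco1a4 and Slco1a1, were measured. The highest signal of the other 4 was 34.8. Slc22a5, Slc22a21 and Slc22a4 form another run, in which Slc22a5 had a log2 difference of 0.24 and Slc22a4 of -0.86. Slc22a25 and Slc22a8 stand side by side with 0.52 and -0.55. Abca8 and Abca8a, also neighbours, had 0.35 and -0.47. Probe sets of such closely related genes can bind each other's transcripts, and their specificity was not tested.

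Of the ABC A and G lipid carriers without a hepatocyte export role, Abca2, a lipid transporter of endosomes and lysosomes, had the largest decrease of all 44 genes, from 152.9 to 63.2, 2.42-fold lower on its single probe set. Abca8a stood at 1646 and 1187.5, 1.39-fold lower, Abca8 at 172.3 and 219.2, and Abcg3l1 at 58.3 and 40.0. Abcg1, which passes cholesterol to high density lipoprotein, stood at 184.4 and 215.5, 1.17-fold higher, the opposite direction to Abca1. Abca3, known for packing surfactant lipid in the lung, stood at 220.0 and 192.7, with its second probe set in the opposite direction at 0.24. Except for Abca2 these genes lay within 1.5-fold.

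In the ABC C family the regulatory subunit genes of ATP-sensitive potassium channels stood apart from each other. Abcc9, the sulfonylurea receptor SUR2 of muscle and pericyte-like cells, went from 318.0 to 151.1, 2.10-fold lower. On its other measured probe set it went from 73.7 to 36.3, 2.03-fold lower, with the olive oil signal under the level of 41.4. Its remaining probe set was not measured, at 30.5 and 25.1, a log2 difference of -0.28. Markers of hepatic stellate cells, the pericytes of the sinusoid, summed to 3197 in the fasted liver and 3355 after oil over 8 measured genes. Of these, Dcn had a log2 difference of 0.84, Lrat of -0.59, Pdgfrb of -0.47 and Rgs5 of 0.25, and none was listed at 0; their part in the difference of Abcc9 was not tested. The gene Col3a1 alone gave 1808 and 1876 of these sums. Abcc8, the receptor SUR1 of pancreatic beta cells, was near the level for a measured gene, at 44.5 and 52.4. Abcc10, a drug and conjugate pump, went from 37.6 to 62.3, 1.66-fold higher, but this value of 0.73 in log2 shrank to 0.51 under a floor at the 50th percentile and to 0.55 with 16 added to every signal, both short of 1.5-fold. The fasted signal of Abcc10 lay under the level of 41.4 for a measured gene.

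The ABC proteins of peroxisome, mitochondrion and cytosol, and Abcd4, lay within 1.5-fold. Abcd3, the peroxisomal membrane protein PMP70, which imports branched-chain acyl-CoA and bile acid intermediates, stood at 1009 and 1032, a log2 difference of 0.03. Abcd4, which serves the release of cobalamin from lysosomes, stood at 83.0 and 59.2, a log2 difference of -0.49. The mitochondrial Abcb10, needed for heme synthesis, stood at 264.8 and 231.7, with a second probe set at 0.06, and Abcb6 and Abcb8 had log2 differences of 0.17 and 0.27. The soluble ABC E and F proteins carry no membrane domain and serve translation: Abce1 recycles ribosomes, and Abcf1 takes part in initiation. All 4 had higher signals in the olive oil array, in a narrow range of log2 differences from 0.23 to 0.28 (0.16 to 0.20 with centred arrays). Abce1 stood at 735.2 and 890.6, Abcf1 at 404.4 and 487.9, Abcf2 at 268.0 and 316.2, and Abcf3 at 327.0 and 384.7. Abcf3 had a second, dimmer probe set at 0.76, and each of the 4 lay within 1.5-fold on its chosen one.

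Of the SLC10 genes besides Slc10a1, Slc10a2, the bile acid carrier of ileum and bile duct, stood at 45.6 and 53.9, close to the level for a measured gene, and the orphan Slc10a3 at 87.2 and 89.6. Markers of bile duct cells were mostly dim, and 3 of 7 represented markers were measured. Cftr stood at 24.4 and 22.9, Krt19 at 52.1 and 30.2, Spp1 at 46.8 and 45.7, and Tspan8 at 73.4 and 71.7. Epcam was the brightest, at 179.7 and 123.0. Krt7 at 7.3 and 19.5 and Muc1 at 3.4 and 14.5 had higher olive oil signals. Their fasted signals lay under the floor of 12.8, so this direction is not reliable. The 7 summed to 387.1 in the fasted liver and 327.5 after oil, and none was listed at 0. Hepatocyte markers were bright, in keeping with the liver label: Alb stood at 17154 and 17984, and the 9 represented markers had a median log2 difference of 0.05. Kupffer cell markers had a median of 0.08 over 7 genes.

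The 29 genes that were not measured had no signal above 51.4 on either array. Of these, 4 were below the floor on both arrays, Slc22a6, Slc22a24, Slc47a1 and Slco1a3, and 11 of the 73 were below it on 1 array. Values this low hold no reliable order: 8 of the 29 lay past 1.5-fold on the higher side and 5 on the lower after the floor, among them Slc22a21 at 2.9 and 40.8 and Abcb9 at 49.6 and 17.7. The share among all genes that were not measured was not counted. With dim genes kept, 12.8% of all genes were higher and 12.4% lower. Carriers known mainly from kidney, such as Slc22a2, Slc22a6 and Slc22a12, and from brain or testis, such as Slco1c1 and Slco6b1, were among the 29.

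Several measured probe sets of 1 gene mostly pointed the same way. Of 12 such genes, 9 had all probe sets on 1 side of 0 and 3 did not, namely Slco1b2, Abca3 and Abcb10. Abcc9 and Slco2a1 were past 1.5-fold lower on every measured probe set. The other 5 genes past 1.5-fold besides Slc22a23, which are Abca2, Slc22a4, Abcc6, Abcc4 and Abcc10, rested on a single measured probe set each.

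**Figure D3:**
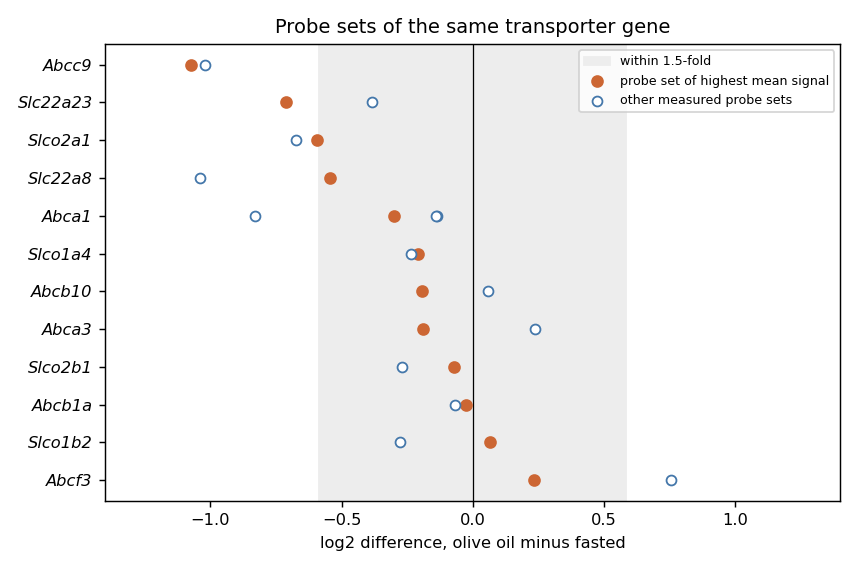
Log2 difference, olive oil minus fasted, on every measured probe set of the 12 transporter genes that had more than 1; filled circles mark the probe set of highest mean signal, open circles the others, and grey the range within 1.5-fold. The probe sets of Abcc9 and of Slco2a1 nearly coincide, those of Slc22a8 and Abca1 spread on the lower side, and those of Slco1b2, Abca3 and Abcb10 lie on both sides of 0.

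Other genes of the canalicular pole, of carrier control and of bile acid and sterol handling are given beside the carriers, with no test between the lists. Among 15 measured canalicular partners, 4 were at least 1.5-fold lower (10.1% of all genes were) and 1 higher (9.46%), with a median log2 difference of -0.32. Aqp8, the water channel of the canalicular membrane, went from 2211 to 903.7, 2.45-fold lower, and Anpep, the canalicular aminopeptidase N, from 1345.5 to 744.9, 1.81-fold lower. Atp7b, which exports copper into bile, went from 102.4 to 40.5, 2.53-fold lower, and Cgn, the tight junction protein cingulin, from 184.3 to 79.5, 2.32-fold lower. Each of these 4 probe sets was dimmer in the olive oil array, and each gene had 1 measured probe set. The olive oil signal of Atp7b lay under the level of 41.4 for a measured gene. The gene at least 1.5-fold higher was Nherf1, a scaffold that anchors apical carriers, at 1838 and 3259; it and the next-named Foxa3, Nr1i2 and Nr1h3 were picked for mention after their values were seen.

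Among 15 measured regulators of these carriers, 5 were at least 1.5-fold lower (33.3%, beside 10.1% of all genes) and 2 higher (13.3%, beside 9.46%), with a median of -0.23. Nfe2l2, the NRF2 factor that induces several ABC C genes, went from 1779 to 842.9, 2.11-fold lower. Foxa2, a liver factor that activates bile acid carriers, went from 916.8 to 463.0, 1.98-fold lower, and Nr1i3, the xenobiotic receptor CAR, from 743.4 to 379.1, 1.96-fold lower. Fgfr4, the hepatic receptor for the gut hormone FGF15, went from 310.8 to 178.5, 1.74-fold lower. The regulators did not share a direction: Foxa3 and Nr1i2, the receptor PXR, had log2 differences of 0.69 and 0.59, and Nr1h3, the oxysterol receptor LXR alpha, of -0.59, the last pair at the limit of 1.5-fold. Nr1h4, the bile acid receptor FXR, was 1.27-fold lower and its target Nr0b2 1.49-fold lower.

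Of 13 measured genes of bile acid synthesis and conjugation, 3 were at least 1.5-fold lower (23.1%, beside 10.1% of all genes) and 1 higher (7.69%, beside 9.46%), with a median of 0.0082, which was -0.06 with centred arrays and -0.04 after quantile normalization. The 4 with the widest differences were Akr1d1, Amacr, Cyp8b1 and Cyp7a1, at -1.70, -0.81, -0.62 and 0.61 on the log2 scale. Akr1d1 had 2 measured probe sets, and their mean was -0.85. Its decrease thus came from the chosen probe set, and the other one was almost unchanged. Cyp7a1 was 0.54 with centred arrays, short of 1.5-fold. Of 8 measured sterol partners of the lipid carriers, 0 were at least 1.5-fold higher or lower, beside 19.6% of all genes, and the median was -0.14. With centred arrays Pltp, at -0.64, was past 1.5-fold. Pltp, which moves phospholipid between lipoproteins, stood at 384.4 and 259.2, Scarb1, the receptor for high density lipoprotein, at 796.5 and 600.8, Stard4, a carrier of cholesterol within the cell, at 211.0 and 275.5, and Mylip, which degrades the low density lipoprotein receptor, at 85.3 and 75. The log2 difference of Stard4, 0.38, came from a probe set that may bind several transcripts and was -0.0089 without such probe sets.

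**Figure D4:**
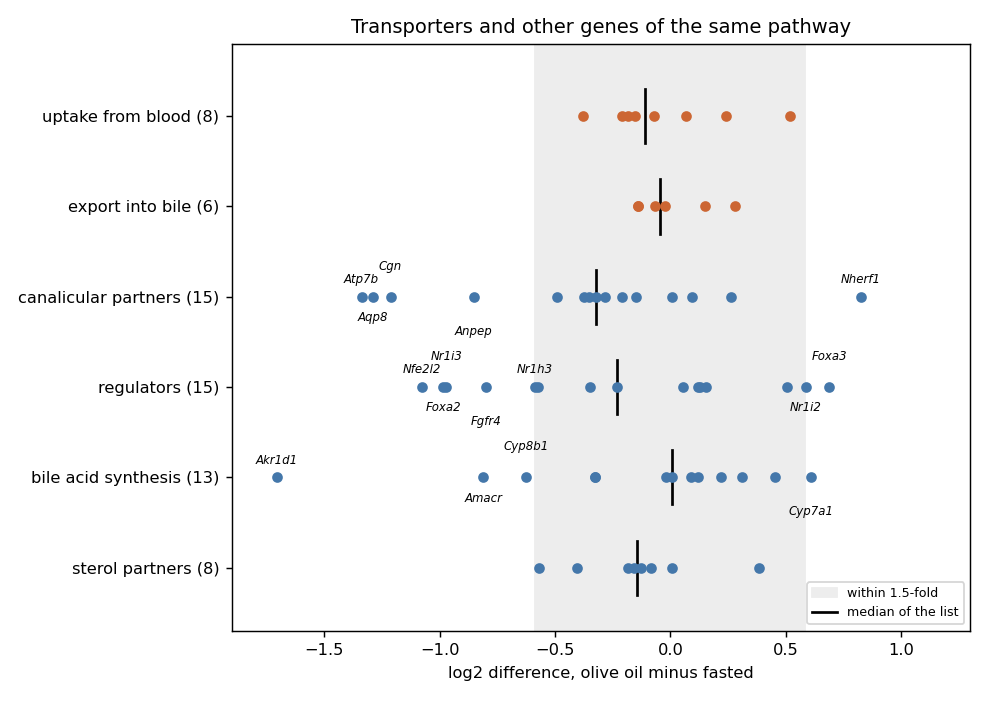
Log2 difference, olive oil minus fasted, of measured uptake and bile export genes (orange) and of 4 lists of other genes of the same pathway (blue), with the number of genes in brackets, a bar at each median, grey for the range within 1.5-fold and names for genes outside it. Aqp8, Atp7b, Cgn and Anpep lie on the lower side among the canalicular partners, where all 6 bile export genes stay in the grey range.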

How the data were processed

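The authors deposited 1 linear signal intensity per probe set and array. Affymetrix Expression Console is named per the submitters' processing notes; its algorithm and version: not given in the sources used here. Trimmed by 2% at each end, the mean was 200.1 for either array, so the intensities appear scaled to a common level, which assumes that most transcripts do not shift. No detection calls were used.

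The 57 control probe sets were left out. For the other 31042, lower signals were set to a floor of 12.8 (the 25th percentile) before log2 was taken, with no further normalization. Of these probe sets, 20826 had 1 gene, 436 several and 9780 none in the platform annotation, which can be old; 20758 were matched by gene ID to RefSeq (GRCr8) symbols, which changed 0 of the 73 symbols. A low or shared signal is noisy, and the number of arrays limits the precision.

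All genes of uptake, bile export and blood export were named whatever their change, as were other measured members past 1.5-fold and up to 4 genes of widest difference per pathway list; other names were added for description. Members and lists were chosen with earlier results of these data known. The functions were tested on simulated data. Alternatives were centring, quantile normalization, other floors, an offset of 16, other filters on dim probe sets, the mean over probe sets, dropping suffixed probe sets that may bind several transcripts, platform symbols and a 2-fold size. Python 3.11.15, numpy 2.4.6, pandas 2.3.3 and matplotlib 3.10.9 were used.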

Additional observations from a re-analysis of the deposited data

How the results depend on the processing

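With 1 array per group and no detection calls used, depth in the sense of signal over background limits the dim genes most. Of the 10 alternatives to the processing, each kept the medians of uptake (-0.18 to -0.07) and of export into bile (-0.12 to -0.03) below 0, and no transporter past 1.5-fold changed direction. The median of all genes moved as well, to -0.09 with centred arrays and to 0 without a filter. Of the 8 measured transporters past 1.5-fold, 6 stayed past it under every alternative that gave a value; Slc22a23 did not with the mean over probe sets, and Abcc10 did not with the higher floor or the offset. The mean over probe sets brought in Slc22a8, so that the count stayed at 8.

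The count of transporters past 1.5-fold, 8 of 44, was 2 at a 2-fold size (0 higher and 2 lower), 4 of 30 with the filter at the 75th percentile (0 higher), beside 14.4% of all genes there, and 21 of 73 without a filter (10 higher and 11 lower), beside 25.2%. It was 10 of 44 with centred arrays (2 higher and 8 lower), beside 20.3% of all genes, and 9 after quantile normalization (2 higher and 7 lower), beside 19.5%. The count of higher genes was 1 under a floor at the 50th percentile and 1 with the offset of 16. Without a filter 1 gene of uptake or bile export, the dim Slco1a5, was past 1.5-fold. The median over all transporters, -0.07, was -0.14 with centred arrays, -0.14 with the filter at the 75th percentile and 0 without a filter. The median of all genes, -0.01, was -0.09, -0.01 and 0 in the same settings. No paired analysis was possible because each group has 1 array.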

Other observations

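A pair of probe sets annotated to more than 1 gene held a transporter of these families and were not counted. That shared by Abcg3l4 and Abcg3l2, rodent relatives of the ABC G lipid carriers, read 1444.5 in the fasted liver and 886.7 after oil, a log2 difference of -0.70. That shared by the P-glycoprotein genes Abcb1a and Abcb1b stood at 148.7 and 166.0, a log2 difference of 0.16, on the other side of 0 from both probe sets of Abcb1a alone.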
